A study of Homo sapiens with 20 samples.

Results

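Antisense RNA genes are annotated by the gene they lie against, and 256 of them were expressed in the tumors studied here. They were chosen by their level, as the genes whose symbol ends in -AS and a number and whose mean FPKM over the 8 libraries was at least 0.5, out of 1081 genes with such a symbol and 24196 genes in the deposited table. FPKM is the number of sequenced fragments of a gene scaled by its length and by the fragments of the library, so levels can be set side by side between genes. The mean level was used to choose these genes, and their levels are therefore given as a description and without a test. Just inside the limit were SRP54-AS1 at 0.508 FPKM, TSPOAP1-AS1 at 0.509 FPKM and ATXN1-AS1 at 0.509 FPKM, and just outside it were ZBTB11-AS1, KIF1C-AS1 and SMIM15-AS1, each at 0.489 FPKM. The mean reached 0.5 FPKM in both treatment groups for 232 of the 256 genes, in PBS tumors alone for 8 and in gluconate tumors alone for 16, and a gene that passed through 1 group alone had to differ between them to some extent.

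The tumors grew from OVCAR8, an established line of human ovarian carcinoma, in the ovarian fat pad of immunodeficient NSG mice that were 6 weeks old. For the tumors of this treatment the study gives the cells as tagged with luciferase and carrying the control guide sgNC, in both groups alike, which the labels of these libraries do not state. Both groups of 4 libraries were orthotopic tumors, and they differed in the weekly intraperitoneal treatment over 35 days, which was PBS in the control group and 1 mg/kg of sodium gluconate in the other. All 8 tumors therefore stand for 1 cell line, and it is not given in the sources used here how fragments from mouse cells were handled. PolyA RNA was sequenced, and the other 12 libraries of the series, from cultured OVCAR8 cells, were not analysed here. The sample labels call these 8 libraries tumors, while the study's text speaks of treated cells, and the labels were followed. The columns were assigned to PBS and gluconate by the letters the study uses in its own comparison, and nothing says that same-numbered tumors belong together, so p values measure the spread between these libraries.

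An antisense RNA is transcribed from the strand opposite to another gene, its sense gene, and many are long RNAs that code for no protein. Some start next to the promoter of the sense gene and run away from it, and others start within or behind it and run through its body. In both arrangements an antisense RNA can act on the sense gene, by guiding chromatin modifiers, by interfering with its transcription or by pairing with its transcript, and others act elsewhere in the cell or have no known function. Many antisense transcripts are short-lived, because the nuclear RNA exosome degrades them, and polyA selection captures only RNAs that carry a polyA tail.

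Positions were taken from the GENCODE 29 annotation of GRCh38 for 227 genes with their sense gene and from RefSeq on GRCh38.p14 for 15, and 14 could not be placed together with a sense gene. All 242 pairs that were placed lay on opposite strands. In 91 pairs (37.6%) the annotated starts were at most 1000 bases apart, here called head-to-head, with a median distance of 388 bases. In 148 pairs (61.2%), here called overlapping, the starts were farther apart and the gene bodies overlapped, and in 3 pairs, FOXD2-AS1, ITFG2-AS1 and MAFA-AS1, the genes lay apart. Gene bodies overlapped in 224 of the 242 placed pairs, so many head-to-head pairs overlap as well, and the 2 classes differ by the distance between starts. Exons of the antisense gene shared bases with exons of the sense gene in 174 of the 227 GENCODE pairs, with a median of 8.62% of the antisense exon bases over the 227. The strandedness of the counting is not given in the sources used here, so fragments from such shared bases cannot be told apart between the 2 genes.

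RefSeq windows were at hand for both genes of 180 pairs, and starts of the sense gene were searched up to 250 bases upstream of starts of the antisense gene. Where several starts were listed, the shortest distance was kept. In 48 of these pairs a start of the sense gene lay between 1 and 233 bases upstream of a start of the antisense gene, on the other strand, so that 1 short stretch of DNA held both starts. The 3 windows printed first show this arrangement in genes named in the results, and the last 2 belong to the antisense genes with the lowest unadjusted p between the groups, which are not among the 48 pairs. Each window is a RefSeq sequence on GRCh38.p14, written 5′ to 3′ on the strand of the antisense gene, with 250 bases before its start. In the first 3, capitals run from the start of the sense gene to the start of the antisense gene, both included, and in the last 2 the single capital is the RefSeq start of the antisense gene.

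ILRUN-AS1, plus strand, chr6:34696695-34696994: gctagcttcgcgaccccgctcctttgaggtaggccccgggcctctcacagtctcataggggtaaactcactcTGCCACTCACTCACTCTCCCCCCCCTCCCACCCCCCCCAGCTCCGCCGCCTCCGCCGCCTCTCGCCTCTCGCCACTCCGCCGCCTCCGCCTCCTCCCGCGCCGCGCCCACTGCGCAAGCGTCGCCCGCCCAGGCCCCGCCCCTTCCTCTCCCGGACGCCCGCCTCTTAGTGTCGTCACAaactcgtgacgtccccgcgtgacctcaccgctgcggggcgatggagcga

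TPT1-AS1, plus strand, chr13:45341095-45341394: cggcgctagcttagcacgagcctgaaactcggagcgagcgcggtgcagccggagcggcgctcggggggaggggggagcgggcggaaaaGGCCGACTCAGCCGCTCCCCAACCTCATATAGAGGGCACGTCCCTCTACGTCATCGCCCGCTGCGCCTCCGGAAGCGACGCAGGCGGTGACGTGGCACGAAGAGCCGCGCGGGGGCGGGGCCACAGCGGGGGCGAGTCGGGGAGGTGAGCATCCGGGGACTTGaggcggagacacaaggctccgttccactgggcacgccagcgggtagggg

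GTF3C2-AS2, plus strand, chr2:27356515-27356814: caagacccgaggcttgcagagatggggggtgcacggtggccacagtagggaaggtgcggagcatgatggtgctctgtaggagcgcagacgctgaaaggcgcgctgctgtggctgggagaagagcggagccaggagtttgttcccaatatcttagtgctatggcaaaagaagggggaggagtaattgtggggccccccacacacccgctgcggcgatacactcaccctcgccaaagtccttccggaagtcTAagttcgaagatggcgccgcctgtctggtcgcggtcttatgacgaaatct

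COA6-AS1, minus strand, chr1:234373354-234373653: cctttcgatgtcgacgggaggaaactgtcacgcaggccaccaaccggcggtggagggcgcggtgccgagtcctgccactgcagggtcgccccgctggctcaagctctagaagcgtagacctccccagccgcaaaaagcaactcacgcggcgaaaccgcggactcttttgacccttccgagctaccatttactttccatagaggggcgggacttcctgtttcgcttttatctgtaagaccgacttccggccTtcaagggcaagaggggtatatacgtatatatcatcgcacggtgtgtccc

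CDKN2B-AS1, plus strand, chr9:21994541-21994840: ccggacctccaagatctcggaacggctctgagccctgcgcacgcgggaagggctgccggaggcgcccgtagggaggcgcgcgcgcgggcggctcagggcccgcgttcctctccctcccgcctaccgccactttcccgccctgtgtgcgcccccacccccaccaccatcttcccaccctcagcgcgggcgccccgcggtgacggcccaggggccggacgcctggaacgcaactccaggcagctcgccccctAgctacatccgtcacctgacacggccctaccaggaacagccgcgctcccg

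The starts are 178 bases apart in ILRUN-AS1 and ILRUN, 162 bases in TPT1-AS1 and TPT1, and 1 base in GTF3C2-AS2 and GTF3C2, where the transcripts begin back to back by these starts. RefSeq lists 2 starts for ILRUN-AS1 and for GTF3C2-AS2, and the GENCODE starts of the same 3 pairs are 542, 25 and 788 bases apart, with overlapping gene bodies in each pair. The window of ILRUN-AS1 holds 34 CG dinucleotides, that of TPT1-AS1 38, that of GTF3C2-AS2 19, that of COA6-AS1 26 and that of CDKN2B-AS1 36. Over the 201 expressed antisense genes with a RefSeq window the median was 24 CG dinucleotides and 64.3% G and C, beside 25.5 and 65.8% in the windows of 210 sense genes and 14 and 58.3% in those of all 27305 RefSeq genes. The GC box, searched as GGGCGG on both strands, was found in 59.2% of the antisense windows, 67.1% of the sense windows and 44.6% of all windows. The TATA box, searched as TATAAA on both strands, was found in 4.48%, 5.71% and 12.0% of these windows, and the CCAAT box, searched as CCAAT on both strands, in 32.3%, 37.1% and 35.7%. These shares are a description of windows of which many overlap.

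Levels of the antisense genes were low. Their median was 1.29 FPKM, 164 of the 256 reached 1 FPKM, 28 reached 5 FPKM and 15 reached 10 FPKM. THAP9-AS1, whose sense gene derives from a DNA transposase, was the highest at a mean of 33.3 FPKM, with 36.5, 27.9, 34.2 and 31.6 FPKM in PBS replicates 1 to 4 and 33.5, 36.1, 33.3 and 33.6 FPKM in gluconate replicates 1 to 4. The 2 groups overlapped, and THAP9 itself, from a start that GENCODE puts 276 bases away, was at a mean of 1.18 FPKM. VIM-AS1 followed at 31.5 FPKM. It lies against VIM, the gene of the intermediate filament protein vimentin, which at 1676 FPKM was the highest of all sense genes. Of the exon bases of VIM-AS1, 32.2% lie in exons of VIM, and whether VIM fragments were counted on it was not tested.

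The other genes among the 10 highest were VPS9D1-AS1 at 29.6 FPKM, FGD5-AS1 at 28.4 FPKM, AGAP2-AS1 at 19.7 FPKM, PITPNA-AS1 at 18.1 FPKM, ELFN1-AS1 at 15.5 FPKM, AFAP1-AS1 at 14.9 FPKM, NUTM2A-AS1 at 13.4 FPKM and ZNF232-AS1 at 13.1 FPKM. Among these 10, only VIM-AS1 and PITPNA-AS1 stood below their sense gene. AFAP1-AS1, known from many carcinomas, was at 14.9 FPKM beside 11.7 FPKM for AFAP1, the gene of an actin filament-associated protein, and was the higher of the pair in 7 of 8 libraries. NUTM2A-AS1 has a near-identical copy elsewhere on its chromosome, and its value is uncertain where the counting could have split fragments between the copies. In PITPNA-AS1 69.9% of the exon bases, and in AGAP2-AS1 57.7%, lie in exons of the sense gene.

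**Figure D1:**
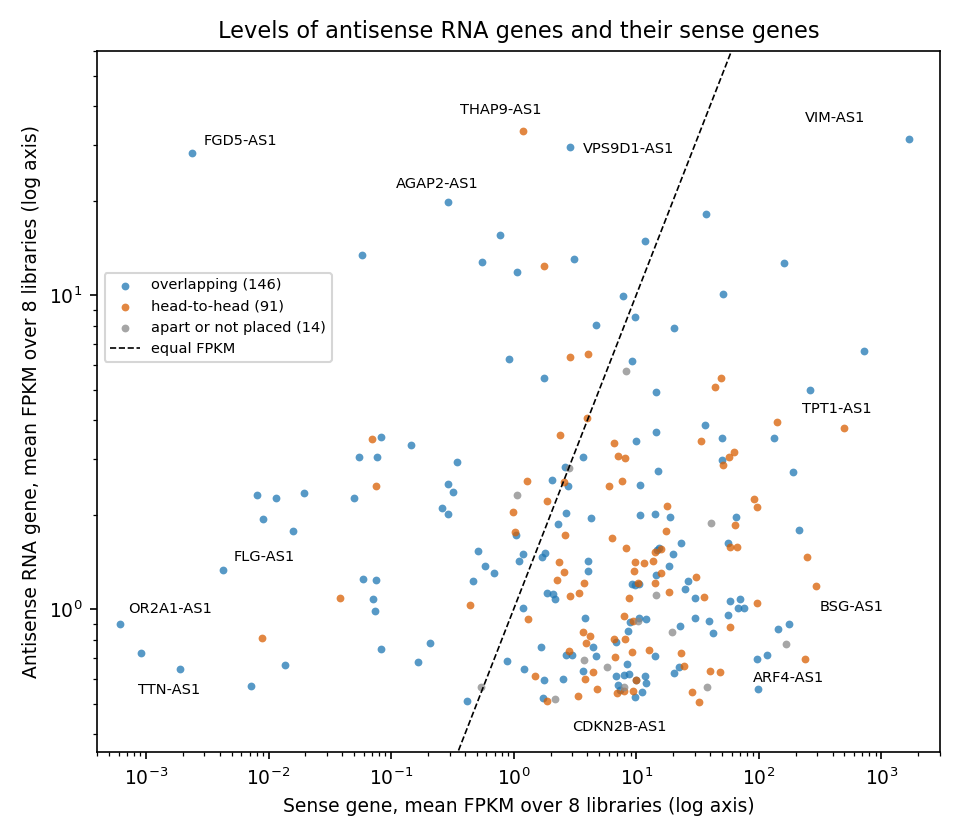
Mean FPKM over the 8 tumor libraries of each antisense RNA gene (y axis, log scale) against its sense gene (x axis, log scale), 1 point for each of 251 pairs, coloured by the position of the genes. The 69 points left of the dashed line of equal FPKM are pairs in which the antisense gene was the higher, from FGD5-AS1 at the far left top to pairs just past the line.

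The sense gene was in the table for 251 of the antisense genes, and the 5 without one were MYL12-AS1, HOXB-AS1, SAPCD1-AS1, CKMT2-AS1 and HOXC-AS2. In 182 of the 251 pairs the sense gene had the higher mean FPKM and in 69 pairs (27.5%) the antisense gene had it. The median sense gene was at 7.73 FPKM beside a median of 1.30 FPKM for the antisense genes, and in the median pair the sense gene was 5.44-fold higher. The order was the same in every library for 224 pairs, with the antisense gene above in 53 and below in 171, and 27 pairs changed order between libraries, or 18 without PBS replicate 4. Across the pairs the 2 levels were hardly related, with a Spearman rho of -0.01 over 251 pairs that share the same libraries. Head-to-head pairs had the antisense gene above in 15 of 91 and overlapping pairs in 51 of 146, with median log2 ratios of antisense to sense mean FPKM of -3.06 and -1.60.

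In the 5 pairs with the highest ratios the sense gene had 1 to 74 fragments over all 8 libraries. FGD5-AS1 had 38449 fragments over the 8 libraries, while FGD5, the gene of a Cdc42 exchange factor of endothelial cells, had 5, a ratio per length of 1.04e+04 with an exact 95% binomial interval from 4446 to 3.20e+04 that covers counting error only. OR2A1-AS1 had 285 fragments and the olfactory receptor gene OR2A1 had 1, a ratio of 1430 (interval 255 to 5.67e+04). OR2A1-AS1 lies in a duplicated segment, which makes its value uncertain. FGF14-AS2 had 251 fragments against 5 for the growth factor gene FGF14, a ratio of 690 (interval 292 to 2145). The muscle gene titin gave 74 fragments to TTN and 1340 to TTN-AS1, a ratio of 331 (interval 262 to 425), although 55.1% of the exon bases of TTN-AS1 lie in exons of TTN. FLG-AS1 stood 269-fold (interval 172 to 448) above FLG, the gene of the epidermal protein filaggrin. In 32 pairs the antisense gene was at least 10-fold above, and 26 sense genes were under 0.1 FPKM.

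The 5 pairs with the lowest ratios held sense genes of high level. ARF4-AS1 was at 0.693 FPKM, and ARF4, the gene of a small GTPase of the Golgi, was at 237.8 FPKM. BSG-AS1 was at 1.19 FPKM beside 292 FPKM for BSG, which encodes the surface protein basigin, and H1-10-AS1 at 0.776 FPKM beside 167 FPKM for the linker histone gene H1-10. NDUFB2-AS1 and NDUFV2-AS1, which lie against genes of respiratory complex I, were at 0.895 and 0.558 FPKM beside 176.9 and 98.2 FPKM. Whether sense fragments were counted on these antisense genes was not tested, and the share of exon bases in exons of the sense gene was 50.4% for ARF4-AS1, 16.2% for BSG-AS1, 19.5% for NDUFB2-AS1 and 0% for NDUFV2-AS1, while H1-10-AS1 could not be placed. In 90 pairs the antisense gene was at least 10-fold below.

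Depth limited the comparisons of many of these genes. PBS replicate 4 had 3953206 fragments in its FPKM denominator, as recovered from the steps between values, and the other 7 libraries had 39325749 to 46551535. The median antisense gene had 89 to 100 fragments in those 7 libraries and 6 fragments in PBS replicate 4, where 24 of the 256 genes had none. In each of the other 7 libraries every one of the 256 genes had a fragment. The shallow library also stood apart in other genes. Its summed FPKM of the fibroblast markers was 45.5 against 130 to 193 in the others. Of these 10 markers 6 reached a mean of 0.5 FPKM, while COL1A2, DCN, PDGFRA and THY1 had means under 0.1 FPKM. COL1A2 and PDGFRA were at 0 in PBS replicate 4. The sum of granulosa and theca markers was 22.9 in this library against 3.65 to 6.90 in the others. Of these 7 markers 5, FSHR, CYP19A1, CYP17A1, INHA and STAR, were at 0 in it, so that the sum rests on FOXL2 and AMH. The markers of ovarian carcinoma epithelium summed to 1670 to 2413 FPKM over all 8 libraries, with PAX8 between 32.4 and 50.7 FPKM, those of endothelial cells to 0.257 to 0.707 FPKM, and KRT19, MUC16 and CDH6 were at means under 0.1 FPKM. The part of these differences in the values of the antisense genes was not tested.

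In PBS replicate 4, 139 of the 256 antisense genes (54.3%) were below the lowest of the other 7 libraries, where 58.0% of the 12486 genes with a mean of at least 0.5 FPKM were, and 36 (14.1%) were above the highest, where 13.7% of all tested genes were. These shares were thus near those of genes at large. The median shift of this library from the median of the other 7, on the log2(FPKM + 0.1) scale, was -0.47 for the antisense genes, -0.28 for their sense genes and -0.28 for all genes. With an exact 95% Poisson interval on its fragments, which covers counting error only, 22 antisense genes (8.59%) were below the other 7 libraries and 4 (1.56%) were above, beside 27.5% and 7.50% of all genes tested. At so few fragments a lower level of most antisense genes in this library was not detectable.

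The 4 above were ZEB2-AS1, IGFBP7-AS1, SPEN-AS1 and ZNF114-AS1, of which the last 3 were picked for this. ZEB2-AS1, which regulates the splicing of the leader of the transcription factor gene ZEB2, was at 1.43, 2.80, 1.28 and 17.1 FPKM in PBS replicates 1 to 4 and at 0.807, 1.52, 0.355 and 2.12 FPKM in gluconate replicates 1 to 4. ZEB2 itself was at 33.6 FPKM in PBS replicate 4 and at 4.70 to 8.53 FPKM elsewhere, so both genes of the pair were high in the same library. Of the exon bases of ZEB2-AS1, 41.4% lie in exons of ZEB2. IGFBP7-AS1 was at 3.46 FPKM there and at most 0.387 FPKM elsewhere, and IGFBP7, the gene of a secreted binding protein, was at 24.8 FPKM there and at most 3.27 FPKM elsewhere. SPEN-AS1 and ZNF114-AS1 were high there without their sense genes, at 1.11 and 2.03 FPKM.

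**Figure D2:**
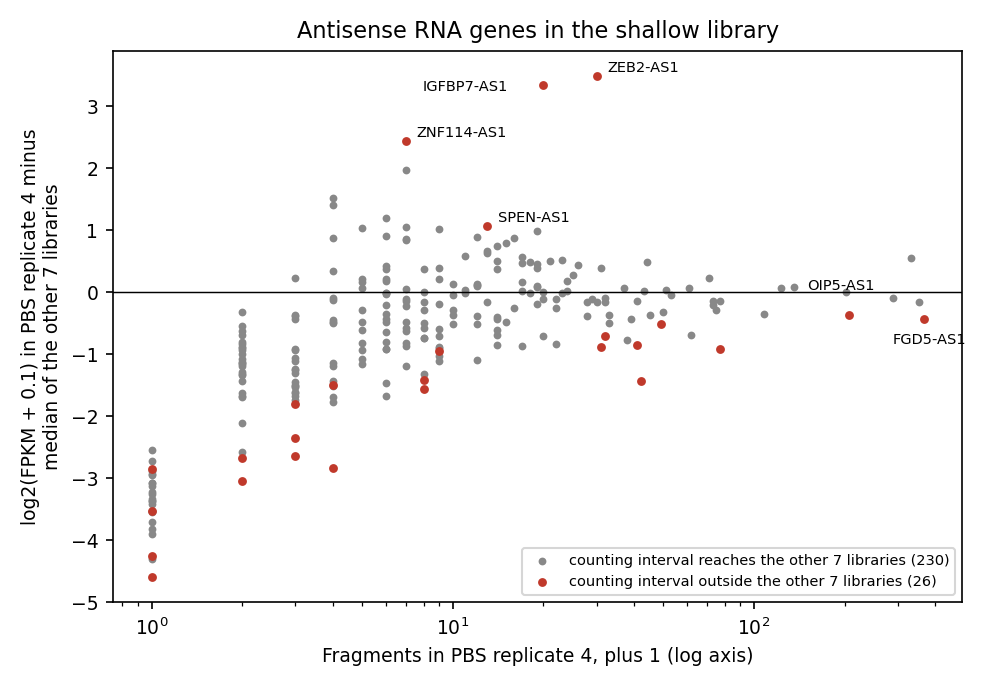
Shift of each of the 256 antisense RNA genes in PBS replicate 4 (y axis, log2(FPKM + 0.1) minus the median of the other 7 libraries) against its fragments in that library plus 1 (x axis, log scale). Red points are the 26 genes whose 95% Poisson interval lies outside the range of the other 7 libraries, and the 24 genes without a fragment stand at the left edge, with shifts from -4.60 to -2.55.

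The comparison of gluconate with PBS tumors asked whether the treatment went with other levels of these RNAs. Fits used limma's moderated test on log2(FPKM + 0.1), two-sided, over the 12486 genes with a mean of at least 0.5 FPKM, and a gene was counted as called at an unadjusted p under 0.05 together with a log2 difference of 1 or more in either direction. A fold change on this scale understates the change of a low gene. COA6-AS1, ILRUN-AS1, IRF1-AS1 and MRPS9-AS1 were called higher in gluconate tumors, 4 of 256 (1.56%) where 0.192% of all tested genes were, and 0 antisense genes were called lower, where 0.104% of all genes were. In PBS replicate 4 each of the 4 called genes had 1 or 2 fragments. The antisense genes had larger counting errors than genes at large, given with their spread at the end, and no excess of calls is read from these shares. The count was 11 without PBS replicate 3, 2 without gluconate replicate 2 and 0 without gluconate replicate 3 or with limma voom on the recovered fragments. At an unadjusted p under 0.05 alone, 10 antisense genes were higher (3.91%, beside 3.13% of all genes) and 2 were lower (0.781%, beside 1.49%). Of the 10, CDKN2B-AS1 and PRR7-AS1 had PBS means under 0.5 FPKM and passed the level filter through their gluconate tumors, so the count is a description. These counts were 12 and 8 under median ratio scaling and 12 and 7 under quantile scaling, 13 and 2 with a pseudocount of 1 and 17 and 1 with the replicate block. They were 17 and 5 without PBS replicate 1, 10 and 1 without PBS replicate 2, 24 and 2 without PBS replicate 3, 14 and 6 without PBS replicate 4, 8 and 0 without gluconate replicate 1, 7 and 3 without gluconate replicate 2, 4 and 3 without gluconate replicate 3, and 10 and 1 without gluconate replicate 4. The smallest adjusted p of an antisense gene, from limma with the Benjamini-Hochberg method applied to all 12486 genes, was 0.740, so none passed an adjusted threshold of 0.05, and neither did any other gene.

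Without PBS replicate 4, limma called 0 antisense genes in either direction, beside 0.0240% of all genes called higher and 0.0641% called lower. At an unadjusted p under 0.05, 14 antisense genes were then higher (5.47%, beside 2.83%) and 6 were lower (2.34%, beside 3.36%), and 11 of the 12 genes with such a p over all libraries had it again in the same direction. The exception was DENND3-AS1. The smallest adjusted p of an antisense gene was then 0.802 in limma.

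The median log2 fold change of the antisense genes was 0.18 over all libraries, beside 0.07 for all genes and 0.07 for their sense genes, and 0.06 without PBS replicate 4, beside -0.0033 for all genes. By fitted value at any p, 183 of the 256 (71.5%) were higher in gluconate tumors, beside 66.4% of all genes, and these shares were 62.5% and 50.9% under median ratio scaling, 57.4% and 52.5% under quantile scaling and 60.5% and 48.9% without PBS replicate 4. The 24 antisense genes without a fragment in PBS replicate 4 were all higher in gluconate tumors by their fitted value, with a median of 1.04, a figure that depends on the pseudocount. Having no fragment in a PBS library itself lowers the PBS mean, so this direction is a description. Without that library their median was 0.12 and 16 of the 24 were higher. The 35 genes with over 30 fragments there had medians of 0.08 with it and 0.02 without it. The fold changes of the poorly covered antisense genes thus moved with 1 library.

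**Figure D3:**
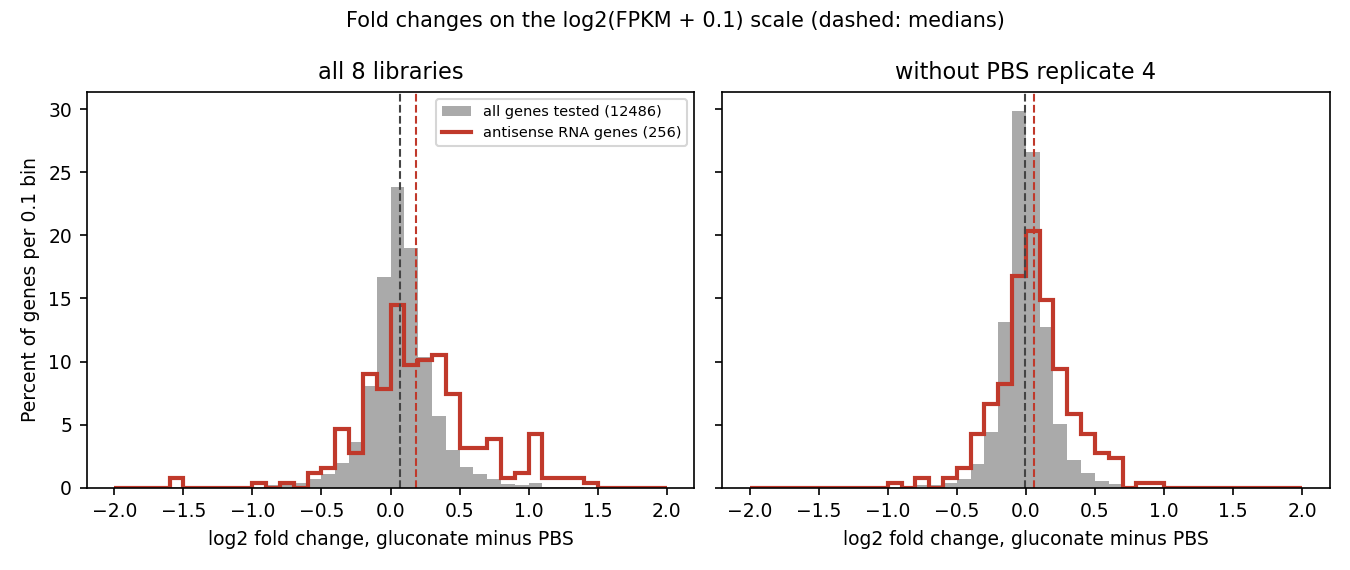
Percent of genes (y axis) in bins of 0.1 of the log2 fold change from PBS to gluconate tumors (x axis), for all 12486 genes tested (grey) and the 256 antisense RNA genes (red), with all 8 libraries and without PBS replicate 4; values past 2 in size are drawn in the last bin. Red bins reach past 1 on the left, up to 1.42, and on the right no antisense gene passes 0.93.

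COA6-AS1 had the lowest unadjusted p of the antisense genes. It lies on chromosome 1 from 234372807 to 234373593 on the minus strand in GENCODE, while the window printed above has the RefSeq start at 234373403. It is head-to-head with COA6, whose product helps to assemble cytochrome c oxidase, and 24.0% of its exon bases lie in exons of COA6. It was at 0.942, 0.811, 1.50 and 0.659 FPKM in PBS replicates 1 to 4 and at 1.71, 1.86, 2.91 and 1.80 FPKM in gluconate replicates 1 to 4. All 4 gluconate tumors were above all 4 PBS tumors, with a log2 fold change of 1.03 (SE 0.26, unadjusted p 0.00298, adjusted p 0.740 in limma) and of 0.88 (SE 0.23) without PBS replicate 4. Its value in PBS replicate 4 rests on 2 fragments, and those of the other libraries on 29 to 88. COA6 differed less, with a log2 fold change of 0.06 (SE 0.11).

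ILRUN-AS1 lies on chromosome 6 from 34696317 to 34697470 in GENCODE, while the window printed above is that of a RefSeq start, and lies head-to-head with ILRUN, a regulator of inflammation and lipid metabolism. It was at 1.62, 1.31, 1.82 and 0.271 FPKM in PBS replicates 1 to 4 and at 2.12, 2.32, 2.83 and 2.58 FPKM in gluconate replicates 1 to 4. The groups did not overlap, but PBS replicate 4, with 1 fragment, set much of the log2 fold change of 1.15 (SE 0.46, unadjusted p 0.0326), which was 0.61 (SE 0.14, unadjusted p 0.00180) without it. ILRUN had a log2 fold change of 0.01 (SE 0.08), and 35.9% of the exon bases of ILRUN-AS1 lie in its exons.

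IRF1-AS1 runs on chromosome 5 from 132410636 to 132488702 and overlaps IRF1, the gene of an interferon-regulated transcription factor. Its values were 1.79, 2.02, 1.24 and 0.390 FPKM in PBS replicates 1 to 4 and 1.76, 2.56, 2.55 and 3.68 FPKM in gluconate replicates 1 to 4. The groups overlapped through gluconate replicate 1, and the log2 fold change was 1.06 (SE 0.43) with PBS replicate 4, which had 1 fragment, and 0.60 (SE 0.23) without it. IRF1 had 0.35 (SE 0.23).

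MRPS9-AS1, on chromosome 2 from 105097052 to 105102944, overlaps MRPS9, a gene of the mitochondrial ribosome. It was at 0.918, 1.05, 2.01 and 0.883 FPKM in PBS replicates 1 to 4 and at 2.77, 2.53, 4.39 and 1.18 FPKM in gluconate replicates 1 to 4. Gluconate replicate 4 was below PBS replicate 3, and the log2 fold change was 1.04 (SE 0.38), or 0.93 (SE 0.39) without PBS replicate 4. MRPS9 had 0.03 (SE 0.07).

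CDKN2B-AS1, also known as ANRIL, takes part in Polycomb silencing of the INK4 genes and lies on chromosome 9 from 21994778 to 22121097, across CDKN2B, which encodes an inhibitor of cell cycle kinases. It was at 0.453, 0.454, 0.446 and 0.300 FPKM in PBS replicates 1 to 4 and at 0.689, 0.655, 0.767 and 0.811 FPKM in gluconate replicates 1 to 4. The groups were apart, with a log2 fold change of 0.70 (SE 0.21, unadjusted p 0.00804, adjusted p 0.740 in limma), and of 0.59 (SE 0.17) without PBS replicate 4. CDKN2B was at 6.98, 6.58, 6.18 and 5.14 FPKM in PBS replicates 1 to 4 and at 7.07, 7.10, 7.63 and 10.0 FPKM in gluconate replicates 1 to 4, which also did not overlap, with a log2 fold change of 0.34 (SE 0.14). Such non-overlap with higher values was seen in 1 of the 212 sense genes tested (0.472%, beside 2.08% of all genes), and in 2 without PBS replicate 4, CDKN2B and ILRUN (0.943%, beside 2.41%). No exon base of CDKN2B-AS1 lies in an exon of CDKN2B in GENCODE 29, although 13.8% lie in exons of other genes. The PBS mean of CDKN2B-AS1 was 0.413 FPKM, so this gene passed the level filter through its gluconate tumors, and the same is true of PRR7-AS1.

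PRR7-AS1 was at 0.411 to 0.564 FPKM in PBS tumors and at 0.697 to 0.891 FPKM in gluconate tumors, which gave a log2 fold change of 0.58 (SE 0.19) that was 0.58 (SE 0.18) without PBS replicate 4. ZBTB46-AS1, which lies within the gene of a transcription factor of dendritic cells, was at 0.462 to 1.45 FPKM in PBS and at 1.61 to 2.13 FPKM in gluconate tumors, with log2 fold changes of 0.94 (SE 0.31) and 0.63 (SE 0.17). No exon base of either gene lies in an exon of its sense gene. TMPO-AS1, head-to-head with TMPO of the nuclear lamina, was at 1.68 to 3.04 FPKM in PBS and at 3.06 to 3.76 FPKM in gluconate tumors, with log2 fold changes of 0.46 (SE 0.18) and 0.30 (SE 0.12).

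Counting non-overlap alone, 11 antisense genes (4.30%) were higher in every gluconate tumor than in every PBS tumor, where 2.08% of all genes tested were, and 3 (1.17%) were lower, where 1.41% were. The 11 were COA6-AS1, ILRUN-AS1, CDKN2B-AS1, PRR7-AS1, ZBTB46-AS1, TMPO-AS1, H1-10-AS1, DENND3-AS1, HERPUD2-AS1, SRRM2-AS1 and ZNF213-AS1, of which the last 3 are named for this alone. CDKN2B-AS1, PRR7-AS1 and SRRM2-AS1 had PBS means under 0.5 FPKM and passed the level filter through their gluconate tumors, so this count too is a description. Without PBS replicate 4 the counts were 12 (4.69%, beside 2.41%) and 5 (1.95%, beside 3.65%).

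Of the antisense genes that were lower, WARS2-AS1 had the lowest unadjusted p. It starts 275 bases from WARS2, which encodes the mitochondrial tryptophanyl-tRNA synthetase, and runs on chromosome 1 from 119140396 to 119275973. It was at 2.48, 2.88, 3.27 and 2.47 FPKM in PBS replicates 1 to 4 and at 2.25, 1.89, 2.09 and 2.40 FPKM in gluconate replicates 1 to 4. The groups did not overlap, though PBS replicate 4 and gluconate replicate 4 nearly met, and the log2 fold change was -0.35 (SE 0.14, unadjusted p 0.0333), or -0.40 (SE 0.13) without PBS replicate 4. WARS2 had -0.16 (SE 0.16), or -0.30 without PBS replicate 4.

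FAM222A-AS1 was at 1.06 to 1.27 FPKM in PBS and at 0.647 to 1.03 FPKM in gluconate tumors, which gave a log2 fold change of -0.44 (SE 0.19) with and -0.44 (SE 0.18) without PBS replicate 4. GTF3C2-AS2, head-to-head with the gene of a subunit of the polymerase III factor TFIIIC, was at 1.35 to 2.24 FPKM and at 1.02 to 1.29 FPKM, a log2 fold change of -0.41 (SE 0.19) that was -0.26 (SE 0.13) without PBS replicate 4. USP2-AS1, whose sense gene encodes a deubiquitinase, was at 1.88 to 3.94 FPKM and at 1.21 to 2.28 FPKM, with -0.59 (SE 0.27), or -0.39 (SE 0.23) without PBS replicate 4. VPS9D1-AS1, the only one of the 10 highest antisense genes among these, was at 27.2 to 38.2 FPKM in PBS and at 24.2 to 29.1 FPKM in gluconate tumors. Its groups overlapped, and its log2 fold change was -0.25 (SE 0.12) with and -0.30 (SE 0.12) without PBS replicate 4, on at least 1813 fragments in each of the other 7 libraries. The last 3 did not reach an unadjusted p of 0.05 over all libraries.

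Sense genes gave no calls. Of the 212 sense genes that passed the level filter, 0 were called in either direction in limma with or without PBS replicate 4. At an unadjusted p under 0.05, 5 were higher (2.36%, beside 3.13% of all genes), namely CD63, CDKN2B, IL6, SVIL and THBS3, and 5 were lower (2.36%, beside 1.49%), namely BCL10, DDN, FLNC, NR2F2 and RTCA, and 9 of these 10 are named for this alone. Without PBS replicate 4, 2 were higher (0.943%, beside 2.83%), DGUOK and THBS3, and 10 were lower (4.72%, beside 3.36%). The counts higher and lower were 14 and 5 without PBS replicate 1, 12 and 3 without PBS replicate 2, 3 and 7 without PBS replicate 3, 4 and 3 without gluconate replicate 1, 1 and 4 without gluconate replicate 3, and 1 and 3 without gluconate replicate 4. Of 213 pairs with both genes tested, the fitted values of both genes were above 0 in 101 pairs and below 0 in 25, and they had opposite signs in 87, of which 49 had the antisense gene higher. Without PBS replicate 4, 70 pairs were both above, 50 both below, and 93 opposite. The numbers of pairs that were both higher and both lower therefore depended on this library.

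Within pairs, the levels of the 2 genes over libraries were weakly related. Over the 213 pairs with a sense gene of at least 0.5 FPKM, the median Pearson r across 8 libraries was 0.34, and 0.18 across the 7 without PBS replicate 4, with the middle 50% of pairs between -0.20 and 0.56. The points of a pair share library and depth, and these values are a description. The median r across 7 libraries was 0.17 in 86 head-to-head pairs and 0.27 in 113 overlapping pairs, and 0.26 in 146 pairs with shared exon bases and 0.21 in 43 without.

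The change of the antisense to sense log2 ratio was tested in all 251 pairs by exact permutation of the 8 libraries, two-sided, where 0.0286 is the smallest p that 70 arrangements allow. It reached this p in 12 of the 251 pairs, and in 7 without PBS replicate 4. Among the 12 were 8 of the 48 named pairs, and 5 of these 8, COA6-AS1, ILRUN-AS1, CDKN2B-AS1, VPS9D1-AS1 and FAM222A-AS1, were named for their p between the same groups, so their ratios are a description and no support. Over all 251 pairs, the ratios of the groups did not overlap in 8 (3.19%) with higher and in 4 (1.59%) with lower ratios in gluconate tumors. These are the same 12 pairs, since groups of 4 that do not overlap always reach the smallest p. Without PBS replicate 4 the ratios did not overlap in 10 (3.98%) and 4 (1.59%). In COA6-AS1 the ratio went from -3.76 ± 0.35 (SD, n = 4) to -2.78 ± 0.29 (SD, n = 4), a change of 0.97, and without PBS replicate 4 the change was 0.91 with an exact permutation p of 0.0286, the smallest that 35 arrangements allow. ILRUN-AS1 changed by 1.14, or 0.53 without PBS replicate 4, and ARF4-AS1 by 1.29, or 0.44, both with the same smallest exact permutation p in either case. ARF4-AS1 had 0 fragments in PBS replicate 4, so its larger value depends on the pseudocount. TMPO-AS1 and CDKN2B-AS1 changed by 0.39 and 0.36, or 0.30 and 0.33 without PBS replicate 4, where the exact permutation p was 0.0571 for both. With a pseudocount of 1 the change of CDKN2B-AS1 was -0.011.

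The ratio fell in the other 3. VPS9D1-AS1 over VPS9D1 went from 3.74 ± 0.44 (SD, n = 4) to 2.98 ± 0.38 (SD, n = 4), a change of -0.76, with the antisense gene lower and the sense gene, at 1.34 to 2.93 FPKM in PBS and 2.71 to 4.42 FPKM in gluconate tumors, higher by its fitted value. FAM222A-AS1 changed by -0.55 and AGAP2-AS1 by -0.47. Without PBS replicate 4 these were -0.56 (exact permutation p 0.0571), -0.35 (exact permutation p 0.0857) and -0.25 (exact permutation p 0.0857). Adjusted over all 251 pairs, the smallest adjusted p of the exact permutation tests was 0.598, or 0.925 without PBS replicate 4, so no change of a ratio passed after adjustment.

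Among antisense RNAs with a known role, 2 had an unadjusted p under 0.05 over all libraries, CDKN2B-AS1 and TMPO-AS1, both higher, where 3.13% of all genes were. CDKN2B-AS1 passed the level filter through its gluconate tumors. Of a list of 27 such RNAs written with earlier results of these data known, all 27 were in the table and 18 were among the 256 genes. Of the other 9, 7 were under the level filter, from 0.00678 FPKM for SOX9-AS1 to 0.272 FPKM for TP73-AS1, and DLEU2 and HCG11 carry no -AS symbol. OIP5-AS1, a long RNA that sponges RNA-binding proteins and miRNAs, was at 5.66 to 6.67 FPKM in PBS replicates 1 to 3, at 4.88 FPKM in PBS replicate 4 and at 6.01 to 7.12 FPKM in gluconate tumors, with a log2 fold change of 0.14 (SE 0.12). PSMA3-AS1, against a gene of the proteasome core, was at 11.0 to 13.1 FPKM in PBS and 12.3 to 14.4 FPKM in gluconate tumors, with a log2 fold change of 0.17 (SE 0.09), or 0.22 (SE 0.08, unadjusted p 0.0269) without PBS replicate 4. EPB41L4A-AS1, which hosts a small nucleolar RNA, had 0.05 (SE 0.14), and MAPKAPK5-AS1 and TPT1-AS1 had 0.02 (SE 0.11) and 0.00 (SE 0.13).

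LOXL1-AS1, against the gene of a lysyl oxidase that crosslinks matrix, was at 7.34, 8.26, 11.9 and 7.47 FPKM in PBS replicates 1 to 4 and at 6.66, 7.79, 6.26 and 7.02 FPKM in gluconate replicates 1 to 4, with a log2 fold change of -0.31 (SE 0.16), or -0.37 (SE 0.15, unadjusted p 0.0348) without PBS replicate 4. PAX8-AS1, against the lineage factor PAX8 of this carcinoma, was at 0.493 to 1.55 FPKM in PBS and 0.582 to 1.13 FPKM in gluconate tumors, with a log2 fold change of -0.10 (SE 0.33), beside 42.7 FPKM for PAX8. HIF1A-AS1 starts beside HIF1A, the gene of the hypoxia factor, and HIF1A-AS3 runs through it, and they had log2 fold changes of 0.24 (SE 0.22) and -0.71 (SE 0.66), the latter with 1 fragment in its poorest library. FOXD2-AS1, ZEB1-AS1, MCM3AP-AS1 and TTN-AS1 had log2 fold changes of 0.18 (SE 0.29), 0.04 (SE 0.27), -0.34 (SE 0.25) and 0.40 (SE 0.33).

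HEXA and HMMR, which the study names, encode an enzyme of glycan breakdown and a receptor of hyaluronan, and the antisense genes of both were below the level filter. HEXA-AS1 was at 0 to 0.0937 FPKM in the 8 libraries and HMMR-AS1 at 0 to 0.240 FPKM, while HEXA was at 12.0 to 15.6 FPKM and HMMR at 13.0 to 18.6 FPKM. The groups overlapped for both antisense genes, and no fold change was computed for them.

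Genes of the RNA exosome and its adaptors were expressed throughout, and degradation itself was not measured. All 24 measured genes of a fixed list of exosome subunits, of the NEXT and PAXT adaptors and of the cap-binding complex passed the level filter, from 2.48 FPKM for DIS3L to 40.2 FPKM for EXOSC10 as means over 8 libraries. In limma 0 of the 24 were called in either direction. At an unadjusted p under 0.05, 0 were higher and 2 were lower (8.33%, beside 1.49% of all genes). EXOSC8, a ring subunit of the exosome, was at 20.0, 23.4, 23.1 and 23.2 FPKM in PBS replicates 1 to 4 and at 19.7, 16.5, 17.9 and 18.0 FPKM in gluconate replicates 1 to 4. The groups did not overlap, with a log2 fold change of -0.32 (SE 0.09, unadjusted p 0.00498, adjusted p 0.740 in limma), or -0.30 (SE 0.08) without PBS replicate 4. EXOSC5, another ring subunit, had -0.35 (SE 0.15), or -0.21 (SE 0.10, unadjusted p 0.0640) without PBS replicate 4, which was its highest library at 32.4 FPKM. The genes with the lowest p in the other direction were EXOSC4 at 0.15 (SE 0.08) and EXOSC3 at 0.12 (SE 0.09). The median log2 fold change of the 24 genes was -0.01, or -0.04 without PBS replicate 4.

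The antisense genes varied more between libraries than genes at large. Over the 7 libraries of like depth, the coefficient of variation of an antisense gene had a median of 20.2%, beside 9.82% for the sense genes and 9.74% for all genes tested. The counting error alone, at the mean fragments of a gene, came to a median of 10.3% for the antisense genes and 2.83% for all genes. The highest of the 7 libraries was less than 2-fold above the lowest in 156 antisense genes and at least 4-fold above it in 25. PBS replicate 3 held the highest value of 55 antisense genes (21.5%, beside 19.1% of all genes) and gluconate replicate 3 that of 41 (16.0%, beside 8.87%).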

How the data were processed

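PolyA RNA of 8 OVCAR8 tumors was sequenced in paired reads, 4 tumors from PBS-treated and 4 from gluconate-treated mice. The authors deposited 1 table of FPKM values per gene, made on GRCh38 per the submitters' processing notes. The aligner, the counting, its strand setting and the annotation are not given in the sources used here. The columns carry the letters C and T, which were read as PBS and gluconate from the way the study labels its own comparison, and 0 columns of per-sample values were left unused.

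Fragments were recovered from the FPKM steps, and 100% of values fell on whole fragments within 0.001. A gene was tested at a mean of at least 0.5 FPKM. Values were compared as log2(FPKM + 0.1) with limma 3.58.1 (R 4.3.3, lmFit and eBayes with a trend), and p values were adjusted by Benjamini-Hochberg over all 12486 genes. Ratios within pairs were compared with the exact permutation test, adjusted over all 251 pairs. Python 3.11.15, numpy 2.4.6, pandas 2.3.3, scipy 1.17.1 and matplotlib 3.10.9 were used, and the fit was tested on simulated data. Intervals at 95% are exact Poisson or binomial intervals. Promoter windows reach 250 bases before and 50 after a RefSeq start.

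The antisense genes and all lists were chosen with earlier results of these data known. Genes named were the 10 highest, those called or the 5 with the lowest unadjusted p in a direction with fewer than 5 calls, the 3 on either side of the level limit, the 5 highest and 5 lowest ratios, those of sense genes the study names, the list with a known role, the sense genes of all these, and the 2 exosome genes with the lowest p in each direction. Of the genes this rule names, 1 is not reported here. Alternatives were 2 other pseudocounts, 2 other filters, median ratio and quantile scaling, a replicate block, limma voom on recovered fragments, non-overlap of groups, and leaving out each library.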

Additional observations from a re-analysis of the deposited data

Results flagged for a closer look

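In groups of 4 libraries, the gap between the farthest library and its nearest neighbour was set against the range of the group, and 21 of 196 such groups, over depth, the summed level of the antisense genes, and the named genes and pairs, stood out (10.7%). For independent, normally distributed values about 1 in 20 would. These groups share genes and libraries, and many genes were picked in these same data, so no excess is read from this share. PBS replicate 4 was the library in 9 of the 21. It stood out in its depth, with 3953206 fragments beside 39895393 to 46551535 in the other PBS libraries.

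The level of CDKN2B-AS1 in PBS replicate 4 was 0.300 FPKM beside 0.446 to 0.454 FPKM in the other PBS tumors. ZEB2-AS1 was at 17.1 FPKM there beside 1.28 to 2.80 FPKM, and NDUFV2-AS1 was at 0 FPKM beside 0.597 to 0.682 FPKM. The antisense to sense log2 ratio there was 6.62 for AGAP2-AS1 (5.69 to 5.73 in the others), -7.64 for ILRUN-AS1 (-5.36 to -4.98), -3.66 for IRF1-AS1 (-2.66 to -2.56), 0.65 for FAM222A-AS1 (-0.22 to -0.08) and -9.62 for NDUFV2-AS1 (-7.15 to -6.96).

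In PBS replicate 3, MRPS9-AS1 was at 2.01 FPKM beside 0.883 to 1.05 FPKM, HIF1A-AS3 at 0.282 FPKM beside 0.949 to 1.01 FPKM, and MCM3AP-AS1 at 0.940 FPKM beside 0.530 to 0.596 FPKM. The log2 ratio there was -3.23 for COA6-AS1 (-3.96 to -3.90 in the others) and -4.87 for MRPS9-AS1 (-6.04 to -5.89). In PBS replicate 1, FLG-AS1 was at 1.04 FPKM beside 1.41 to 1.46 FPKM, and its log2 ratio was 3.35 beside 3.85 to 3.91.

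Among the gluconate tumors, replicate 3 had COA6-AS1 at 2.91 FPKM beside 1.71 to 1.86 FPKM, with a log2 ratio of -2.36 beside -2.96 to -2.86. Replicate 2 had THAP9-AS1 at 36.1 FPKM beside 33.3 to 33.6 FPKM and a log2 ratio of 2.98 for EPB41L4A-AS1 beside 3.27 to 3.31. Replicate 1 had a log2 ratio of 0.26 for ZBTB46-AS1, where the other 3 lay at 0.64.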

How the results depend on the processing

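The 4 calls among the antisense genes depended on the processing. There were 0 with a pseudocount of 1, 0 under quantile scaling, 0 with limma voom on recovered fragments, 0 with the same without PBS replicate 4 (chosen after seeing the data) and 2 under median ratio scaling, while 14 genes had groups that did not overlap. Leaving out 1 library gave 0 to 11 calls, with 11 without PBS replicate 3, 0 without PBS replicate 4, 2 without gluconate replicate 2 and 0 without gluconate replicate 3. With no filter and with a filter of 1 FPKM there were 4 each, and with a pseudocount of 0.01 there were 5. Sense genes went from 0 calls to 0 to 3 when 1 library was left out, with 3 without PBS replicate 3, and 3 of 212 had groups that did not overlap. For the exosome and adaptor genes 0 were called in each fit, and 1 of 24 had groups that did not overlap, where 2.08% of all genes did so with higher and 1.41% with lower values. limma voom gave no adjusted p under 0.05, the smallest being 0.901, or 0.737 without PBS replicate 4.

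Of the 48 named pairs, the 8 at the smallest exact permutation p became 5 with a pseudocount of 1 and 1 to 10 when 1 library was left out, with 4 without PBS replicate 4, 2 without gluconate replicates 1, 2 or 3 each and 1 without gluconate replicate 4. The ratio change of CDKN2B-AS1 turned to -0.011 with a pseudocount of 1. The 139 antisense genes lowest in PBS replicate 4 became 75 under quantile scaling and 22 beyond the 95% Poisson interval.

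Same-numbered libraries shared only a number, with correlations of their deviations of -0.18, 0.08, 0.17 and -0.06. A replicate block gave 7 called antisense genes, 6 higher and 1 lower, and 0 named pairs, since 4 pairs of libraries cannot give an exact p under 0.125.

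Of 1529 fold changes of the 91 named antisense, sense and exosome genes under other settings, 1322 kept their direction and side of the threshold, 62 lost and 38 gained a p under the threshold, 107 changed sign without a call and 0 called ones changed sign. Median ratio scaling moved the median log2 fold change of all genes from 0.07 to 0.0033 and that of the antisense genes from 0.18 to 0.12.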
